A study of Mus musculus with 11 samples.

Results

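The oxidative phosphorylation genes were described here over sorted mouse pancreatic islet cells. The members were the rows of the count table whose gene symbol names a subunit of respiratory complexes I to V. There were 100 such rows with 99 symbols among 55401 rows in all. Of these, 87 are encoded in the nucleus and 13 in the mitochondrial genome. Complex I had 36 nuclear and 7 mitochondrial members, complex II had 4 nuclear members, and complex III had 9 nuclear members and 1 mitochondrial member. Complex IV had 20 nuclear and 3 mitochondrial members, and complex V had 18 nuclear and 2 mitochondrial members. Ndufa4 was placed in complex IV and Cox7a2l was kept there as an associated factor.

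Complexes I to IV pass electrons from NADH and succinate to oxygen, all but complex II pump protons across the inner mitochondrial membrane as they do so, and complex V uses that gradient to make ATP. Core subunits carry the redox centres or the catalytic sites, and accessory subunits surround them. In beta cells the ATP made from glucose closes potassium channels and so starts insulin release, which is why respiration is tied to secretion in this cell type.

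Islet cells came from male C57BL6/J mice, aged 10 weeks by the labels (the study's text gives another age), on a chow diet. All mice carried a Cre recombinase driven by the rat insulin promoter, a STOP-tdTomato reporter and an Nnat-EGFP transgene, so tdTomato marked cells with insulin promoter activity and green fluorescence marked activity of the Nnat promoter. Dispersed islet cells were sorted into NNAT-positive beta cells (4 libraries, mice 1 to 4), NNAT-negative beta cells (4 libraries, mice 1 to 4) and non-beta cells (3 libraries, mice 1 to 3). The non-beta fraction is a mixture of all cells without tdTomato, and the same mouse number gave 1 library to each fraction it appears in. In such bulk libraries fewer cells of a type and less RNA per cell cannot be told apart.

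Each library held 30420352 to 43238376 gene counts. Levels are given as CPM, counts brought to a common library total after scaling by the trimmed mean of M values (TMM), and 3 counts corresponded to 0.0649 to 0.102 CPM. Insulin genes took 17.8 to 34.4% of the counts in the beta cell fractions and 0.970 to 2.34% in non-beta cells. The 8 beta cell markers summed to 181591 to 426948 CPM in the beta fractions and to 10551 to 26018 CPM in non-beta cells, where the 6 alpha cell markers summed to 123279 to 171502 CPM. Nnat itself went against its label. It stood at 50.5, 46.4, 46.0 and 101 CPM in the NNAT-positive libraries of mice 1 to 4 and at 74.8, 80.8, 66.5 and 153 CPM in the NNAT-negative ones, lower in the NNAT-positive library of all 4 mice (log2 difference -0.62 ± 0.17 SE, unadjusted p = 0.00484, adjusted p = 0.444, edgeR's quasi-likelihood test with Benjamini-Hochberg adjustment). The fractions are therefore called the libraries labelled NNAT-positive and labelled NNAT-negative, in short labelled-positive and labelled-negative.

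A pair of features of single libraries touched the members. The labelled-negative library of mouse 2 had the highest CPM of all 11 libraries for 35 of 82 tested nuclear members and the lowest for 5 of 7 tested mitochondrial members. Both beta libraries of mouse 4 lay low in nuclear members. The median nuclear member deviated by -0.375 in each from the mean of the other libraries of the same fraction on the log2 scale, against -0.01 and 0 for the median of all tested genes. Mouse 4 has no non-beta library, so its libraries entered the comparisons with non-beta cells only through the shared fit. Where 1 of these libraries or mice changed a call, the value without it is given beside the result.

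Not every member could be tested. Of the 100 rows, 89 passed the filter on low counts and 11 did not, namely mt-Nd3, mt-Nd4l, mt-Co2, mt-Co3, mt-Atp6, mt-Atp8, Cox6c2, Cox7b2, Cox8b, Cox8c and a second row named Atp5o that was at 0 throughout. The mitochondrial genes among them were near 0 beside mt-Co1, a subunit read from the same genome, at 3167 to 9337 CPM. The annotation (gencode M21, GRCm38) holds pseudogene copies of all of them but mt-Atp8 on chromosome 1. Together with copies of parts of mt-Nd4 and mt-Co1, which were tested, these lie on the minus strand between 24611535 and 24616197. mt-Co3 is 784 bases long and its copy Gm28437 (chr1:24613189-24613971) matched it at 783 of 783 aligned bases. mt-Co3 had 0 or 1 counts per library, and the copy had 8 to 25. Copies of mt-Co2 (Gm28661) and mt-Atp6 (Gm10925) were identical over 681 and 678 aligned bases, and those of mt-Nd4l (Gm10222) and mt-Nd3 (Gm28438) over 294 of 294 and 344 of 345.

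The share of 75-base windows, the read length, that also stood in a transcript of another gene was 97.8 to 99.9% for mt-Nd3, mt-Nd4l, mt-Atp6, mt-Co2 and mt-Co3. It was 61.5% for mt-Nd4, 39.8% for mt-Co1, 5.71% for mt-Nd2, 1.66% for mt-Nd5 and 0% for mt-Nd1, mt-Nd6 and mt-Cytb. mt-Nd4 and mt-Co1 had 7680 to 64675 and 117778 to 332334 counts per library at these shares. mt-Atp8 was at 0 counts with 0% shared windows, and it overlaps mt-Atp6 on the same strand over 43 of its bases. The part of the copies in these counts was not tested. The following stretches show how alike the sequences are. The first 75 bases of mt-Co3 (chrM:8607-8681, plus strand) all stand in Gm28437. In mt-Nd4 (chrM:10998-11087, plus strand) capitals mark bases past the end of the copy Gm28439. In the pair mt-Co1 (chrM:6381-6455, plus strand) and Gm29216 (chr1:24616123-24616197, minus strand), capitals mark the 6 bases that differ.
mt-Co3: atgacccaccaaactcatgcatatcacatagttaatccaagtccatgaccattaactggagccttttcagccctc
mt-Nd4: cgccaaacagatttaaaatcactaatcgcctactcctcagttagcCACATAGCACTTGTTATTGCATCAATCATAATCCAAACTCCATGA
mt-Co1: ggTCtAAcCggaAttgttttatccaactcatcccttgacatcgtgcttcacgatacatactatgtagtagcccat
Gm29216: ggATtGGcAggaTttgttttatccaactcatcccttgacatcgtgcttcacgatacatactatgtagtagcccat

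Within a complex the members did not stand at 1 common RNA level per length. Per kb of exon, averaged over the 11 libraries, the nuclear members of complex II and complex III were the most even. In complex II the level ran from 22.1 CPM per kb for Sdhb, the iron-sulphur subunit, to 76.5 for Sdha, the flavoprotein that oxidises succinate. Among the nuclear members of complex III it ran from 19.2 CPM per kb for Cyc1 (cytochrome c1) to 58.6 for Uqcrfs1 (the Rieske iron-sulphur protein). This was a 3.05-fold range, which leaves out the mitochondrially encoded mt-Cytb.

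The nuclear members of the other complexes spanned wider ranges. In complex I the lowest level was 1.82 CPM per kb, for Ndufb2. Complex V ran 82.8-fold, from 2.69 for Atp5l (subunit g) to 223 for Atp5a1, the alpha subunit of the catalytic head. Complex IV ran 469.9-fold, from 0.358 for Cox6b2, an isoform known from testis, to 168 for Cox8a. Of the mitochondrially encoded members, mt-Co1 reached 4359, 4294 and 2774 CPM per kb in labelled-positive, labelled-negative and non-beta cells, while mt-Nd6, the only subunit gene on the opposite strand of the mitochondrial genome, stood at 28.2, 38.5 and 12.2. These levels rest on poly(A)-selected RNA and on the annotated exons. With the longest transcript as length, some of the highest and lowest members were others.

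**Figure D1:**
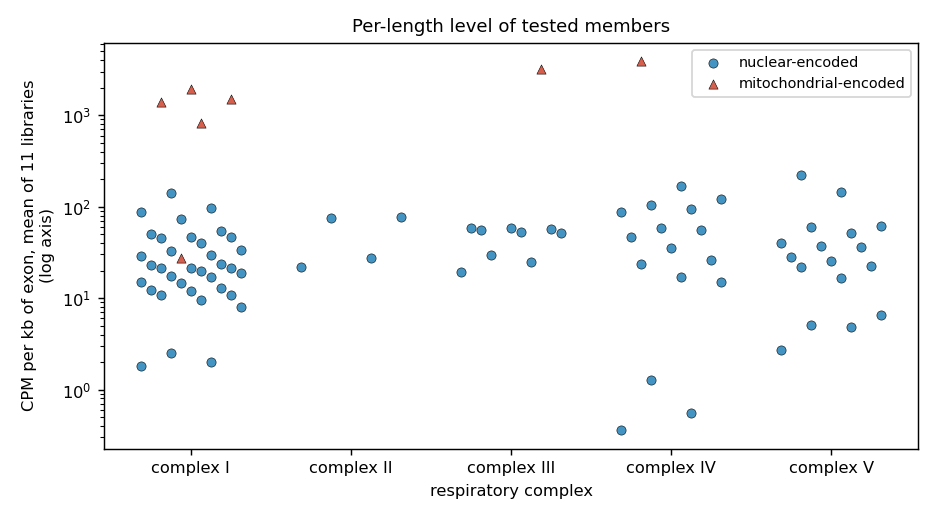
Per-length level of the tested members by complex, 1 member not drawn, as the mean over 11 libraries of CPM per kb of exon on a log axis (circles nuclear, triangles mitochondrial). Nuclear members of complexes II and III lie within 3.46-fold and 3.05-fold, those of complex IV within 469.9-fold, and 6 of 7 mitochondrial members lie above every nuclear one.

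The first question was how beta cells differ from the other islet cells. Against non-beta cells, 14 of the 89 tested members rose in the labelled-positive libraries and 5 fell, at an adjusted p below 0.01. Among all 17424 tested genes 15.8% rose and 19.1% fell in that comparison. In the labelled-negative libraries 13 members rose and 4 fell, beside 15.6% and 21.3% of all genes. In either direction this was 19 and 17 members, beside 34.8% and 36.8% of all genes. At an unadjusted p below 0.05, 17 members were higher and 10 lower for labelled-positive (24% and 29.5% of all genes), and 29 were higher and 7 lower for labelled-negative (23.2% and 31.8%). The members that rose at the adjusted threshold were 14 and 13 of 89, a share near the background at that threshold. All called members lay on the called side in 3 of 3 mice that had both libraries. Without the mouse as a block, 2 of the 14 and 3 of the 5 passed for labelled-positive, and 4 of the 13 and 3 of the 4 for labelled-negative.

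Of the members that rose, 12 did so in both comparisons, which is 85.7% of the first list and 92.3% of the second. The comparisons share the non-beta libraries. Among them were Ndufa1, Ndufa11, Ndufb8, Ndufc2 and Ndufv3 of complex I, Sdha and Sdhc of complex II, Uqcrq of complex III, and Cox6a2, Cox7b and Ndufa4 of complex IV. Atp5g1 and Cox8a passed the threshold with the labelled-positive libraries alone, and mt-Nd6 with the labelled-negative ones alone. Of those that fell, Ndufa6 and Atp5c1 did so in both. The counts of falls also hold Cox4i2 in both comparisons, which passed the filter on low counts through the non-beta libraries alone and so could only be lower. Its values are given without a test. Ndufa9 and Ndufs4 passed only with the labelled-positive libraries and Atp5l only with the labelled-negative ones. None of these 6 passed the threshold in the direct test between the beta fractions.

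Most members moved little. The median log2 difference of the 82 tested nuclear members was 0.13 in labelled-positive and 0.17 in labelled-negative against non-beta cells, where the median of all tested genes was -0.06 and -0.13. Among the members beyond a 2-fold difference and past the threshold was Cox6a2, to which the labelled-negative comparison added mt-Nd6. Cox4i2 also lay beyond 2-fold, but it could only be lower and is given without a test. By complex, the nuclear medians were 0.15 and 0.20 for complex I, 0.27 and 0.31 for complex II, 0.05 and 0.11 for complex III, 0.15 and 0.25 for complex IV, and -0.04 and -0.01 for complex V. These levels move with the scaling. With plain library sizes in place of TMM the nuclear medians were -0.03 and -0.02, and those of all genes -0.22 and -0.31. With DESeq2 the medians of all genes were -0.16 and -0.19. Relative to all genes, the nuclear median was 0.19 in the first comparison and 0.29 in the second under TMM. DESeq2, RLE, plain sizes and TMM without the hormone genes gave the same values. A change of scaling shifts all genes nearly alike, so these settings could hardly move that value. Other settings did, to 0.06 and 0.10 without the mouse as a block, 0.14 and 0.18 without mouse 2, and 0.30 and 0.47 without mouse 3.

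**Figure D2:**
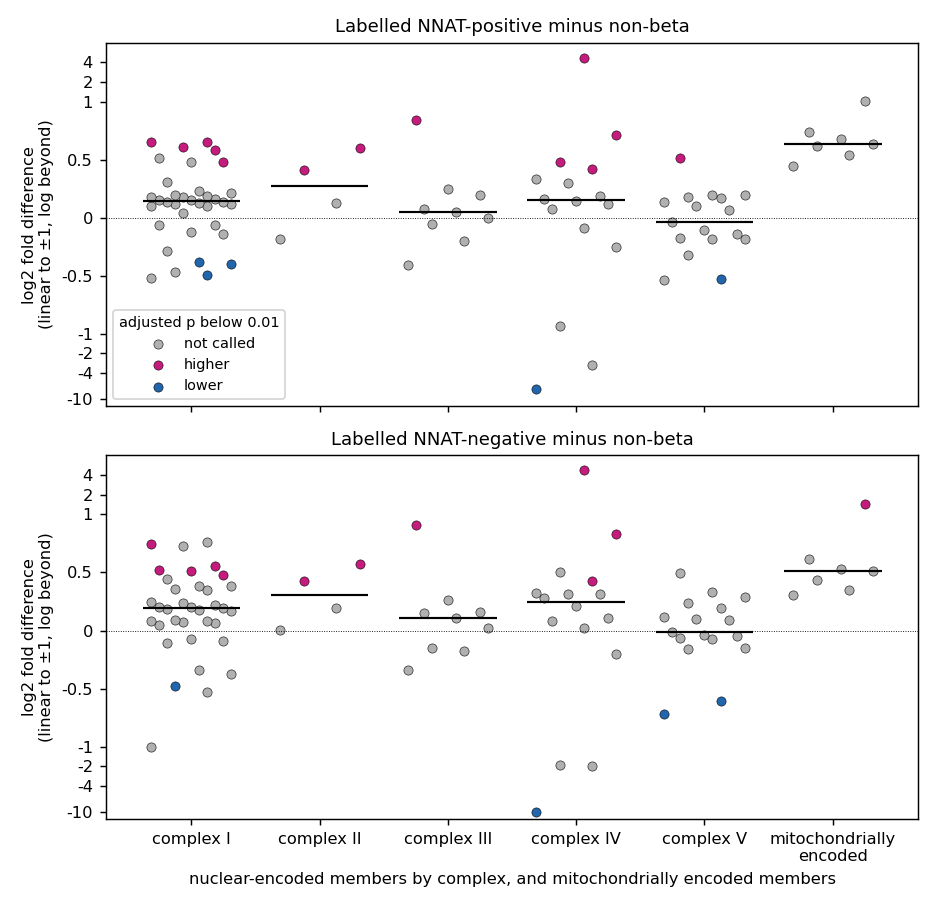
Log2 difference of the tested members from non-beta cells (1 member not drawn), for labelled-positive (top) and labelled-negative libraries (bottom). The axis is linear up to 1 either way and logarithmic beyond, bars are medians, and coloured points passed an adjusted p of 0.01. Cox6a2 stands highest and Cox4i2 lowest in both panels, while complex V centres near 0 under TMM scaling. Cox4i2 could only be lower, so its colour is not to be read as a test result.

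Complex I takes electrons from NADH. Among its 36 nuclear members 6 rose and 3 fell with the labelled-positive libraries, and 6 rose and 1 fell with the labelled-negative ones.

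Its accessory subunits split. Ndufa11, a membrane arm subunit, was at 35.3, 32.9, 37.5 and 27.8 CPM in labelled-positive and at 35.0, 46.4, 36.5 and 25.4 in labelled-negative libraries, against 22.7, 18.5 and 27.9 in non-beta cells. Mouse 4 overlapped the highest non-beta library. The log2 differences were 0.66 ± 0.16 (adjusted p = 0.00758) and 0.74 ± 0.16 (adjusted p = 0.0035, edgeR's quasi-likelihood test). The first call was lost without mouse 1, 3 or 4 (adjusted p = 0.0378, 0.0161 and 0.0233) and the second without mouse 1 or 2 (0.0179 and 0.0132).

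The other accessory subunits that rose in both comparisons were Ndufa1, Ndufb8, Ndufc2 and Ndufv3, by 0.48 to 0.65 on the log2 scale for labelled-positive and 0.48 to 0.56 for labelled-negative. Their beta and non-beta libraries overlapped for Ndufa1 (47.0 to 78.4 and 43.9 to 48.7 CPM), Ndufb8 (31.7 to 48.5 and 28.8 to 33.4) and Ndufv3 (44.2 to 68.7 and 38.0 to 50.6), and did not for Ndufc2 (61.1 to 87.2 and 48.4 to 57.8). Of these, only Ndufa1 for labelled-positive passed with any 1 mouse left out. The others lost the call without mouse 1 in each comparison (adjusted p 0.0114 to 0.0912), and most also without mouse 2, 3 or 4.

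Ndufa6, an accessory subunit of the matrix arm, went the other way. It was at 53.5, 43.0, 51.1 and 43.6 CPM in labelled-positive, 49.5, 46.8, 51.02 and 46.3 in labelled-negative and 65.4, 66.4 and 74.7 in non-beta libraries, with no overlap. Differences on the log2 scale were -0.50 ± 0.09 (adjusted p = 0.00101) and -0.48 ± 0.09 (adjusted p = 0.00131, edgeR's quasi-likelihood test). Both calls were lost without mouse 3 (adjusted p = 0.0184 and 0.0236). Ndufs4, a subunit needed for a stable enzyme, was at 22.4 to 29.8 CPM in the 8 beta libraries and 35.3 to 38.5 in non-beta cells. Its log2 difference was -0.40 ± 0.10 (adjusted p = 0.00878) for labelled-positive and -0.37 ± 0.10 (adjusted p = 0.0115, edgeR's quasi-likelihood test) for labelled-negative. The first call was lost with any 1 mouse left out (adjusted p 0.0191 to 0.0409). Ndufa9 (36.4 to 54.7 CPM in beta, 59.0 to 66.6 in non-beta libraries) fell for labelled-positive by 0.38 and was likewise lost without any 1 mouse (0.0122 to 0.0614).

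Complex II, succinate dehydrogenase, is the only complex made wholly of nuclear gene products and also a step of the citric acid cycle. Sdhc, which anchors the enzyme in the membrane and holds haem with Sdhd, was at 98.6, 117, 103 and 73.6 CPM in labelled-positive libraries. It was at 94.6, 106, 98.1 and 83.7 in labelled-negative and 63.9, 68.1 and 73.2 in non-beta libraries. No beta library reached down to the non-beta ones. The log2 difference was 0.60 ± 0.09 (adjusted p = 0.000352) and 0.58 ± 0.09 (adjusted p = 0.000446, edgeR's quasi-likelihood test), and it passed with any 1 mouse left out. Without the mouse as a block the adjusted p was 0.0146 and 0.0197.

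Sdha was at 366, 348, 347 and 273 CPM in labelled-positive, 345, 377, 338 and 284 in labelled-negative and 262, 250 and 282 in non-beta libraries. Only mouse 4 of the labelled-positive fraction overlapped with non-beta cells. On the log2 scale these differed by 0.41 ± 0.09 (adjusted p = 0.00367) and 0.43 ± 0.09 (adjusted p = 0.00302, edgeR's quasi-likelihood test). Both were lost without mouse 1, 2 or 3 (adjusted p 0.0119 to 0.0309). Sdhb (41.2 to 59.1 CPM in beta, 41.3 to 62.6 in non-beta libraries) and Sdhd (82.97 to 105 and 86.1 to 90.01) overlapped and did not pass.

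In complex III, which passes electrons from ubiquinol to cytochrome c, 1 of 9 nuclear members rose and none fell in either comparison. This was Uqcrq, a small subunit that binds near cytochrome b. It was at 59.6, 64.8, 68.8 and 44.2 CPM in labelled-positive, 53.7, 96.6, 59.7 and 43.3 in labelled-negative and 34.7, 30.7 and 43.1 in non-beta libraries. All beta libraries lay above the non-beta ones, those of mouse 4 just so. The log2 differences were 0.84 ± 0.19 (adjusted p = 0.00381) and 0.91 ± 0.19 (adjusted p = 0.00236, edgeR's quasi-likelihood test). The first was lost without mouse 1, 3 or 4 (adjusted p = 0.017, 0.0107 and 0.0127), and the second passed without any 1 mouse. The core subunits Cyc1 (34.3 to 48.2 CPM in beta, 34.6 to 38.1 in non-beta libraries) and Uqcrfs1 (57.8 to 87.2 and 87.6 to 93.4) did not pass.

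Complex IV, cytochrome c oxidase, held the largest differences, and they fell on paired isoforms. Cox6a2 is the isoform known from heart and skeletal muscle, and Cox6a1 is its widely expressed partner. Cox6a2 stood at 66.4, 33.5, 40.2 and 50.5 CPM in labelled-positive libraries (47.7 ± 14.3, SD, n = 4). In labelled-negative libraries it stood at 75.9, 48.1, 37.1 and 58.9 CPM (55.0 ± 16.5, n = 4), and in non-beta cells at 1.84, 0.848 and 3.07 CPM (1.92 ± 1.11, n = 3). Every beta library lay far above every non-beta library. The fitted difference was 24.1-fold (log2 4.59 ± 0.34, adjusted p = 2.81e-06) and 28.2-fold (log2 4.82 ± 0.35, adjusted p = 1.97e-06, edgeR's quasi-likelihood test), and it passed in all 12 alternative fits of each comparison.

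Cox6a1 in the same libraries was at 50.4 to 83.7, 53.6 to 108 and 58.9 to 82.4 CPM, and neither comparison passed. Per exon length, Cox6a2 made up 31.2 to 50.8% of the pair in labelled-positive, 31.5 to 53.2% in labelled-negative and 1.46 to 3.70% in non-beta libraries. The pair can be told apart by sequence, since 0% of 75-base windows of Cox6a2 and 1.65% of those of Cox6a1 stood in another gene's transcript. The most alike 90 coding bases of the pair lie at chr5:115348613-115348702 for Cox6a1 and chr7:128205942-128206031 for Cox6a2 (both minus strand, GRCm38), and capitals mark the 42 bases that differ. Cox6a2 also shares 70 exon bases with Itgad on the other strand. The counting is not stated to use strand, so reads over such an overlap cannot be told apart.
Cox6a1: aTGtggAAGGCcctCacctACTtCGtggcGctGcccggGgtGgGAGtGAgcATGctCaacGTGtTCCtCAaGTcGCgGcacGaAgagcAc
Cox6a2: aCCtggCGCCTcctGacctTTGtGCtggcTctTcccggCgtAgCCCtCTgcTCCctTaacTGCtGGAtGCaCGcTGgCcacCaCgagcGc

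Cox4i2, an isoform known for its tie to low oxygen and described in lung and in vessel-associated cells, showed the opposite pattern at a low level. It was at 3.59, 3.50 and 3.79 CPM in non-beta cells (132 to 166 counts). It was at 0 in 4 of 4 labelled-negative libraries and in 3 of 4 labelled-positive ones, the remaining library (mouse 3) having 4 counts. Against a floor of 3 counts per library, Cox4i2 was at least 34.3-fold lower in labelled-negative than in non-beta cells. Its partner Cox4i1 was at 116 to 196, 118 to 212 and 201 to 235 CPM in the 3 fractions, with neither comparison passing, and it made up 96.7 to 97.0% of the pair per exon length in non-beta cells. Where the pair is most alike (chr8:120673230-120673319 for Cox4i1 and chr2:152760647-152760736 for Cox4i2, both plus strand), 21 of 90 bases differ, shown in capitals.
Cox4i1: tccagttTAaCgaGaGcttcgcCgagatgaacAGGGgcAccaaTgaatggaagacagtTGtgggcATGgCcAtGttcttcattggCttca
Cox4i2: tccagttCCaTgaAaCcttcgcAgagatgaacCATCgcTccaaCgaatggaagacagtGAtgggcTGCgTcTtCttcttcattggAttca

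Markers of vessel and connective tissue cells moved with Cox4i2. The 6 mesenchymal markers summed to 2722 to 6593 CPM in non-beta cells, at most 4.52 CPM in labelled-positive and at most 2.46 CPM in labelled-negative libraries, where Pdgfra and Acta2 were at 0. The 6 endothelial markers summed to 2044 to 2356 CPM in non-beta cells and 5.17 to 12.8 CPM in the beta fractions, and Cdh5 was at 0 in the labelled-negative ones. Summed markers of alpha, delta, PP, acinar, ductal, leukocyte, Schwann and erythroid cells were also higher in every non-beta library than in any beta library. The part of any of these cell types in the Cox4i2 difference was not tested.

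**Figure D3:**
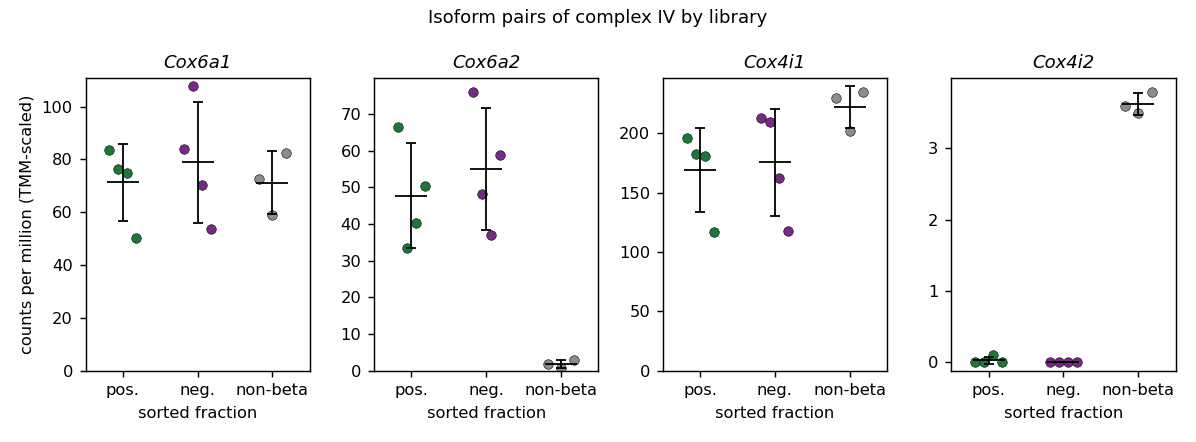
CPM of the isoform pairs Cox6a1 and Cox6a2, and Cox4i1 and Cox4i2, by library in labelled-positive (pos.), labelled-negative (neg.) and non-beta cells, with mean and SD as bars (n = 4, 4 and 3). Cox6a2 is 33.5 to 75.9 CPM in beta and at most 3.07 in non-beta libraries, and Cox4i2 is seen almost wholly in non-beta cells at 3.50 to 3.79 CPM.

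Ndufa4, a cytochrome oxidase subunit despite its name, was at 71.5, 74.97, 74.1 and 49.8 CPM in labelled-positive and 89.7, 76.0, 73.9 and 54.9 in labelled-negative libraries. Non-beta cells had 46.9, 45.1 and 42.5 CPM, below every beta library. Differences on the log2 scale were 0.71 ± 0.09 (adjusted p = 8.45e-05) and 0.83 ± 0.09 (adjusted p = 2.75e-05, edgeR's quasi-likelihood test), and both passed with any 1 mouse left out. Without the mouse as a block the first was at an adjusted p of 0.0183. Cox7b, a small membrane subunit, was at 39.5 to 49.97 CPM in beta and 32.4 to 39.7 in non-beta libraries, overlapping only in the labelled-positive library of mouse 4. Its log2 difference was 0.42 ± 0.09 (adjusted p = 0.00315) and 0.43 ± 0.09 (adjusted p = 0.00285, edgeR's quasi-likelihood test). Its calls were lost without mouse 1, 2 or 3 in both comparisons (adjusted p 0.0128 to 0.0288) and, for labelled-positive, also without mouse 4 (0.01).

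Other isoform pairs of complex IV were 1-sided in every fraction. Cox8a was at 77.3 to 129 CPM in beta and 84.4 to 99.2 in non-beta libraries, while Cox8b and Cox8c, isoforms known from muscle and testis, were at 0 counts in all 11. Cox8a passed only against the labelled-positive fraction (log2 0.48 ± 0.10, adjusted p = 0.00216, while the labelled-negative fraction was at 0.31 ± 0.10, adjusted p = 0.0208, edgeR's quasi-likelihood test), and that call was lost without mouse 1 or 3 (0.0157 and 0.0115). Cox7a2 made up 97.3 to 100% of its pair with Cox7a1 per exon length, and Cox6b1 made up 98.5 to 100% of its pair with Cox6b2. Cox5a (25.7 to 44.2 CPM in beta, 29.3 to 30.6 in non-beta libraries) and Cox5b (32.4 to 47.2 and 36.2 to 47.3) overlapped. Cox7a2l was at 83.7 to 210 CPM in beta and 92.0 to 131 in non-beta libraries. Cox7b2 stayed at or below 0.137 CPM.

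In complex V, the ATP synthase, 1 of 17 tested nuclear members rose and 1 fell for labelled-positive, and 0 rose and 2 fell for labelled-negative. The member that fell in both was Atp5c1, the gamma subunit that turns inside the catalytic head. It was at 115, 114, 106 and 83.2 CPM in labelled-positive and 95.1, 97.8, 110 and 88.7 in labelled-negative libraries, all below 164, 153 and 155 CPM in non-beta cells. On the log2 scale these differed by -0.53 ± 0.09 (adjusted p = 0.000844) and -0.61 ± 0.09 (adjusted p = 0.000328, edgeR's quasi-likelihood test). The first was lost without mouse 3 (adjusted p = 0.0104). The other 4 subunits of the catalytic head, Atp5a1, Atp5b, Atp5d and Atp5e, did not pass in either comparison.

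Atp5g1, Atp5g2 and Atp5g3 encode 1 mature protein, the ring subunit c, from separate genes. Atp5g3 made up 79.8 to 87.6% of the family per exon length in all libraries. Atp5g1 was at 29.6 to 39.3 CPM in beta and 22.2 to 30.3 in non-beta libraries. Its log2 difference was 0.51 ± 0.13 (adjusted p = 0.00956) for labelled-positive and 0.50 ± 0.13 (adjusted p = 0.0107, edgeR's quasi-likelihood test) for labelled-negative. The first lay close to the threshold and was lost without mouse 1, 2 or 4 (0.082, 0.0587 and 0.0172). Of the 75-base windows of its longest annotated transcript (4715 bases) 7.63% stand in transcripts of other genes, and its shorter transcripts were not checked.

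Atp5l followed the mouse more than the fraction. It was at 10.3, 15.4, 12.6 and 33.1 CPM in labelled-positive, 10.9, 9.56, 11.6 and 32.7 in labelled-negative and 15.4, 21.1 and 17.99 in non-beta libraries. Both libraries of mouse 4 stood above all others, and in mice 1 to 3 each beta library lay below the non-beta library of the same mouse. Its log2 differences were -0.54 ± 0.16 (adjusted p = 0.019) and -0.72 ± 0.16 (adjusted p = 0.00432, edgeR's quasi-likelihood test). The second was lost with any 1 mouse left out (0.0105 to 0.0299) and was at an adjusted p of 0.815 without the mouse as a block. Of the 75-base windows of its longest annotated transcript (6310 bases) 3.51% stand in transcripts of other genes, 19 in all, so its count is uncertain. Its shorter transcripts were not checked.

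**Figure D4:**
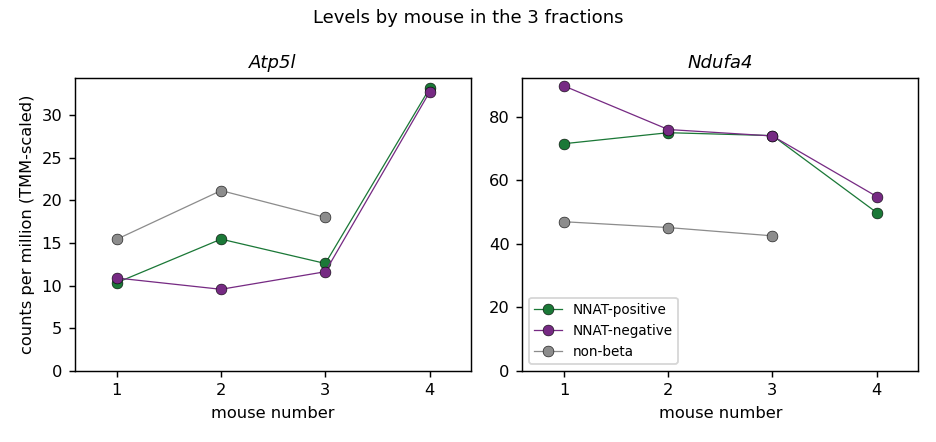
CPM of Atp5l and Ndufa4 by mouse number in the 3 fractions, with lines joining libraries of 1 fraction. Atp5l is 32.7 and 33.1 CPM in the beta libraries of mouse 4 and 9.56 to 15.4 in those of the other mice, and Ndufa4 is 49.8 to 89.7 CPM in beta and 42.5 to 46.9 in non-beta libraries.

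The mitochondrially encoded members took 1.31 to 2.501% of the counts in labelled-positive, 0.636 to 2.35% in labelled-negative and 0.910 to 1.62% in non-beta libraries, while all nuclear members together took 0.536 to 0.649%. The 7 tested genes had differences above 0 in both comparisons, with medians of 0.64 and 0.52 on the log2 scale. Only mt-Nd6 passed, and only for labelled-negative. mt-Nd6 was at 21.5, 10.3, 9.00 and 17.7 CPM in labelled-positive, 32.1, 12.7, 15.6 and 19.5 in labelled-negative and 5.66, 7.45 and 5.94 in non-beta libraries. Every beta library lay above every non-beta library. The log2 differences were 1.01 ± 0.30 (adjusted p = 0.0175) and 1.46 ± 0.30 (adjusted p = 0.00219, edgeR's quasi-likelihood test), the second being lost without mouse 3 (0.016). It shares 14 bases with mt-Nd5 on the other strand.

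The other 6 turned on the labelled-negative library of mouse 2. mt-Cytb, the catalytic cytochrome b of complex III, was at 5644, 4190, 3224 and 4017 CPM in labelled-positive and 5101, 1559, 4903 and 3968 in labelled-negative libraries. Non-beta cells had 2374, 3476 and 1934 CPM. mt-Co1, the catalytic subunit of complex IV, was at 9337, 6563, 4708 and 6330 CPM, then 8778, 3620, 7479 and 6662, against 4155, 5536 and 3167. In both genes mouse 2 was the lowest labelled-negative library, below the non-beta library of the same mouse, while the other beta libraries of mice 1 to 3 were above theirs.

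For all 11 libraries the log2 difference of mt-Co1 was 0.62 ± 0.29 (adjusted p = 0.107) and 0.62 ± 0.30 (adjusted p = 0.111, edgeR's quasi-likelihood test), and that of mt-Cytb was 0.68 ± 0.37 (0.167) and 0.53 ± 0.38 (0.284). Without that 1 library, an alternative chosen after the data were seen, all 7 tested genes passed for labelled-negative, with a median of 1.03 and adjusted p of 0.00253 to 0.00615. In the same fit mt-Co1, mt-Cytb and mt-Nd5 passed for labelled-positive, where the median was 0.80. The summed mitochondrial members stood at 7316 CPM in the library left out and at 18267 to 24429 CPM in the other labelled-negative ones. What set this library apart was not tested.

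**Figure D5:**
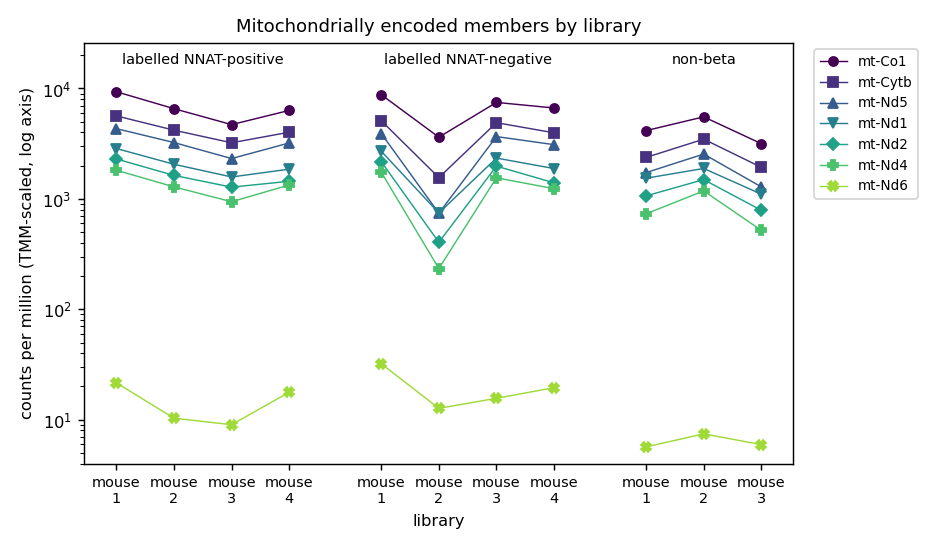
CPM of the 7 tested mitochondrially encoded members in each library on a log axis, with lines joining a gene's values within a fraction as a guide to the eye. The labelled-negative library of mouse 2 is the lowest of its fraction for all 7 (mt-Nd4 at 234 CPM against 1237 to 1742), and mt-Nd6 lies below all others at 5.66 to 32.1 CPM.

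The second question was whether the beta fractions differ from each other. No member passed in either direction between labelled-positive and labelled-negative libraries by edgeR's quasi-likelihood test or by DESeq2. At an unadjusted p below 0.05, 1 member was higher (Ndufa1) and 0 were lower. Over all genes 9 rose, 0.0517% of those tested, and 0 fell, and at an unadjusted p below 0.05 these were 4.82% and 0.746%. Ndufa1, an accessory subunit on the X chromosome, was at 78.4, 70.3, 75.1 and 47.0 CPM in labelled-positive and 66.7, 57.4, 65.3 and 47.9 in labelled-negative libraries. It was higher in 3 of 4 mice, by 0.18 ± 0.08 on the log2 scale (unadjusted p = 0.0466, adjusted p = 0.883, edgeR's quasi-likelihood test).

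The next smallest p-values belonged to Cox5a, Ndufb5, Cox8a and mt-Nd6. Cox8a was higher in 4 of 4 mice (log2 0.17 ± 0.09, adjusted p = 0.885), and Cox5a was lower in 4 of 4 mice (log2 -0.24 ± 0.11, adjusted p = 0.885, edgeR's quasi-likelihood test). Ndufb5 was lower in 4 of 4 mice (-0.27 ± 0.13) and so was mt-Nd6 (-0.46 ± 0.25), with adjusted p = 0.885 and 0.89 in the same test. The median difference of the nuclear members was -0.06 and that of all tested genes 0.05. Both member medians turned on the labelled-negative library of mouse 2. Without it the nuclear median was 0.02, and the mitochondrial median was -0.26 in place of 0.14. A missed threshold does not show that the fractions are alike.

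Markers of other islet cells moved with that comparison. All 6 alpha cell markers were higher on average in labelled-positive libraries, where they summed to 2818 to 4077 CPM against 1587 to 2486 CPM. So were 4 of 4 delta cell markers (1403 to 2490 against 543 to 1046 CPM) and 2 of 2 PP cell markers (299.7 to 421 against 89.0 to 159). Outside the islet cell types, 10 of 10 acinar markers were also higher on average. Their sums overlapped, and labelled-positive libraries held both the lowest and the highest (10.21 to 2320 against 52.7 to 488 CPM). By edgeR, 1 delta marker and both PP markers passed, and no alpha or acinar marker did. Their part in the members' values was not tested.

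Genes that build or serve the complexes were taken as lists, to be read beside the 15.8% and 15.6% of all tested genes that rose and the 19.1% and 21.3% that fell. Of 6 complex III assembly factors 3 rose in both comparisons: Uqcc1, Uqcc2 and Ttc19, all needed to assemble or keep the enzyme. Ttc19 was higher by 1.04 ± 0.13 in both, and Uqcc2 by 1.00 ± 0.20 and 1.21 ± 0.20 on the log2 scale (adjusted p = 0.000101, 9.91e-05, 0.00202 and 0.000597, edgeR's quasi-likelihood test). The list's median was 0.43 and 0.40. Of 16 complex I factors 1 rose for labelled-positive (Tmem186) and 2 for labelled-negative (Tmem186 and Foxred1), the list's median being 0.14 and 0.20. None of 4 complex II factors and none of 6 complex V factors passed at this threshold by edgeR, while at an unadjusted p below 0.05 no complex II factor and 1 complex V factor was higher in each, and 0 were lower.

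Of 24 tested complex IV factors 3 rose and 1 fell in each comparison (median 0.22 and 0.30). Coa3 and Coa7 rose in both, Cox15 for labelled-positive and Lrpprc, which stabilises mitochondrial messenger RNAs, for labelled-negative. Higd1a, a hypoxia-induced protein of the oxidase, fell. It was at 1.32, 0.696, 0.916 and 1.51 CPM in labelled-positive and 0, 0, 0.499 and 0.328 in labelled-negative libraries, against 45.1, 47.6 and 52.5 in non-beta cells. The beta libraries lay below the non-beta ones without overlap (log2 -5.68 ± 0.51, adjusted p = 9.95e-06, for labelled-positive, and adjusted p = 2.01e-06 for labelled-negative, edgeR's quasi-likelihood test). Alpha cell markers and those of the other cell types that moved with Cox4i2 were higher in non-beta cells as well. Their part in the Higd1a difference was not tested.

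Among 15 tested genes of cytochrome c and coenzyme Q synthesis, Coq8a (0.82 ± 0.12 in both) and Coq10a (0.77 ± 0.13 and 0.78 ± 0.13) rose and none fell. Of 8 tested genes for uncoupling and other electron entry, Gpd2, the mitochondrial glycerol phosphate dehydrogenase that brings cytosolic reducing power to ubiquinone, rose by 1.04 ± 0.11 and 1.03 ± 0.11, and Sqor rose by 0.56 ± 0.10 and 0.62 ± 0.10. Ucp2, an inner membrane carrier known to lower coupling, fell. It was at 239, 241, 269 and 205 CPM in labelled-positive, 212, 162, 236 and 159 in labelled-negative and 368, 401 and 405 in non-beta libraries (log2 -0.64 ± 0.11 and -0.96 ± 0.11). All of these passed an adjusted p of 0.01 in both comparisons by edgeR's quasi-likelihood test.

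Of 15 tested import and outer membrane genes, Vdac1, the main outer membrane channel, rose in both (0.62 ± 0.08 and 0.61 ± 0.08), with Tomm70a rising and Tomm22 and Vdac2 falling for labelled-negative. Of 16 genes that copy or transcribe mitochondrial DNA, none passed for labelled-positive by edgeR (3 higher and 2 lower at an unadjusted p below 0.05) and 1, Polg, fell for labelled-negative. Tfam, the packaging and transcription factor of that genome, was at 34.6 to 46.5 CPM in beta and 38.2 to 39.8 in non-beta libraries. Of 12 tested transcriptional regulators of respiration genes, Esrrg, an oestrogen-related receptor known from mature beta cells, rose by 1.87 ± 0.17 and 2.14 ± 0.18. Gabpb1, a subunit of an ETS factor (GABP), fell by 0.65 and 0.68. For labelled-negative Pparg also rose and Gabpa also fell.

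Promoters were matched for 69 of 86 nuclear member symbols (RefSeq, GRCm38.p6, 250 bases before to 50 after the start). A gene counted as holding a site if any of its promoters did. The core of the NRF1 site, GCATGCG on either strand, stood in 11 of the matched members (15.9%), against 4.02% of all 27025 genes with promoters. The ETS core CCGGAAG stood in 17 (24.6% against 9.93%) and AAGGTCA, a site known for oestrogen-related receptors, stood in 8 (11.6% against 5.38%). Cox6a2 had no entry. Of the 11 members with the NRF1 core, 1 rose and 1 fell for labelled-positive, and 1 rose and 2 fell for labelled-negative. Those called are shown with 30 bases around the first match, its letters in capitals: Ndufa11, which rose in both (chr17:56717692-56717721, plus strand), Ndufa6, which fell in both (chr15:82354356-82354385, minus strand), and Atp5l, which fell for labelled-negative (chr9:44920963-44920992, minus strand).
Ndufa11: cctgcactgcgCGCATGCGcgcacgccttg
Ndufa6: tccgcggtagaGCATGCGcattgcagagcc
Atp5l: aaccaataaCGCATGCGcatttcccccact
Of the 17 members with the ETS core, Cox8a rose for labelled-positive and Atp5l fell for labelled-negative. Of the 8 with AAGGTCA, Atp5l fell for labelled-negative. Of all tested genes, 15.8% rose and 19.1% fell for labelled-positive, and 15.6% rose and 21.3% fell for labelled-negative. Beside these shares the counts are too few to be read as a result about members with a motif. Where the letters CGCATGCG appear, matches on both strands overlap by all but 1 base.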

How the data were processed

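Sorted islet cell RNA was poly(A) selected and sequenced as paired 75-base reads. The values used are whole-number counts per gene that the authors deposited, made with STAR 2.7.1a on mm10 with the gencode M25 annotation; the strand setting is not given in the sources used here. Of 55401 rows, 202 had an Ensembl identifier and no symbol and were kept.

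Samples were grouped by their titles. The main fit was edgeR 4.0.16 (R 4.3.3): TMM scaling, filterByExpr by fraction (17424 genes), quasi-likelihood test over all 11 libraries with the mouse number as a block, Benjamini-Hochberg adjustment over all tested genes, and a call at an adjusted p below 0.01. The labels number individual mice alike across fractions. Between the beta fractions, libraries of the same mouse deviated together (mean correlation 0.314, 4 pairs). The correlation was 0.658 for mouse 4 and 0.182 to 0.219 for mice 1 to 3. Deviations were taken from the fraction mean, so the mean of -0.103 for 12 pairs of different mice largely follows from these values. The check did not cover the non-beta libraries. None of 55 pairs of libraries held identical counts. P-values and the SE of the main fit rest on the spread left after the average differences between mice are taken out. SDs describe the spread between the libraries of a fraction. Floors cover counting error only.

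Levels per length used merged exons of gencode M21 (GRCm38), which matched all 100 members by identifier. Alternatives were DESeq2 1.42.0, other scalings, no filter, no block, fewer samples and other thresholds. The fit was tested on simulated data. Members, lists and named genes were chosen with earlier results of these data known. Named members were all Sdh and mitochondrial genes, the isoform families of complexes IV and V, the 2 largest and 2 smallest called differences per complex and comparison, the 5 smallest p-values each way between beta fractions, and the highest and lowest per-length level per complex; genes outside this rule were named after their values were seen. Members below the filter were given no test. The values of 1 member are not reported here, though it is in the counts and medians.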

Additional observations from a re-analysis of the deposited data

Results flagged for a closer look

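Among 100 sets of 4 beta cell libraries examined (each tested member named by the rule and each summed group of members, in each beta fraction), 10 held 1 library whose gap to the nearest other library took more of the range than Dixon's 95% critical value for 4 samples allows. Chance gives about 1 in 20 such sets when sets are independent. These were not, since the summed groups hold the named members and the libraries are shared. The Cox4i2 set, with a single library above 0, passes at any value of that library. Of the 10, 7 were libraries of mouse 4.

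The summed CPM of nuclear complex I members was 1523 in the labelled-negative library of mouse 4 against 2128 to 2164 in the others. For complex II it was 471 in the labelled-positive library of mouse 4 against 597 to 609.7, and for complex V it was 1678 against 2257 to 2341. In the same library Atp5a1 was at 519.7 CPM against 745 to 766, Ndufa4 at 49.8 against 71.5 to 74.97, and Ndufa8 at 26.8 against 35.4 to 37.0. Atp5l was the exception in direction, at 32.7 CPM in the labelled-negative library of mouse 4 against 9.56 to 11.6. The remaining 3 concerned the labelled-positive libraries of mice 2 and 3. Atp5g2 was at 7.01 CPM in mouse 2 against 9.24 to 9.44, Cyc1 was at 39.9 CPM in mouse 2 against 45.4 to 46.5, and Cox4i2 was at 0.105 CPM in mouse 3, from 4 counts, against 0 in the others.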

How the results depend on the processing

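For labelled-positive against non-beta cells, the 14 members that rose were 8 with DESeq2's size factors (RLE) in edgeR, 6 with plain library sizes, 9 with TMM without the hormone genes, 2 without the mouse as a block, 2 when a difference above 2-fold was also asked, and 5 to 15 with 1 mouse left out. The 5 that fell were 9 with DESeq2, 8 with plain sizes, 3 without the block, 3 with only the fractions compared, 1 above 2-fold, and 0 to 3 with 1 mouse left out. The nuclear median of 0.13 became -0.033 with plain sizes (all genes -0.22). For labelled-negative, the 13 that rose were 5 with plain sizes, 4 without the block, 3 with only the fractions compared, 21 at an adjusted p below 0.05, 3 above 2-fold, and 6 to 13 with 1 mouse left out. The 4 that fell were 7 with DESeq2, 8 with plain sizes, 2 with only the fractions compared, 7 at 0.05, 1 above 2-fold, and 1 to 3 with 1 mouse left out. In both comparisons the fall above 2-fold was Cox4i2, which could only be lower. Between the beta fractions the counts stayed 0 under every alternative run. Among calls that held in all 12 alternative fits were Cox6a2 in both comparisons and Ndufa4 and Atp5c1 for labelled-negative. No log2 difference of a single member printed in the report changed sign under these fits. Without the labelled-negative library of mouse 2, chosen after the data were seen, 16 rose and 7 fell for labelled-positive, and 18 rose and 5 fell for labelled-negative. With the longest transcript as length, the range of nuclear members within complex III was 3.89-fold in place of 3.05-fold. It was 3.87-fold in complex II, 396-fold in complex IV and 117-fold in complex V. Some extremes then fell on other members. Sdhc was lowest in complex II, Uqcrh highest in complex III and Atp5b highest in complex V. In complex IV Cox4i1 was highest and Cox7a1 lowest.

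Fits without the mouse as a block count the differences between mice as spread, and fits with 1 mouse or 1 fraction less have fewer samples; the causes of the other changes were not tested. Of 13 mitochondrial members 6 had too few counts to test, and with 3 non-beta libraries most calls turned on single mice.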
